A study of Mus musculus with 24 samples.

Results

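Skin of syngeneic recipients was compared between day 28 and day 14, with 4 arrays at each day, which are 8 of the 24 arrays of the series. These arrays were taken by their labels, which name the group, the day and the replicate, and no measured value entered the choice. All recipients were female RAG2-/- mice, which cannot assemble antigen receptors and so lack their own T and B lymphocytes. The syngeneic recipients had received Balb/c splenocytes and no antibody is named for them. The other 16 arrays came from RAG2-/- recipients of B10.D2 splenocytes, a mismatched graft used as a model of scleroderma-like graft-versus-host disease, given either an isotype antibody or anti-IFNAR1, which targets the receptor for type I interferons, with 4 arrays of each at each day. Shaved skin from the back over the shoulder blades was frozen and its total RNA hybridised to Affymetrix arrays. Recipient age, the time of shaving and whether the arrays of a day came from separate animals are not given in the sources used here. In the main fit p-values and standard errors (SE) therefore measure only the spread between arrays of a group, pooled over all groups. That spread may be technical. The comparison of days in a matched graft addresses how the control skin itself differs between the time points at which the mismatched grafts were studied.

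Mouse hair follicles cycle between growth (anagen), regression (catagen) and rest (telogen), and in young animals neighbouring follicles cycle together, so that a piece of back skin can change its RNA as a whole. In a growing follicle, matrix cells at the base, supplied with signals by the dermal papilla, give rise to the hard keratins of the shaft and to the inner root sheath that moulds it, while melanocytes of the bulb make pigment. Transferred lymphocytes expand in a host that lacks its own T and B lymphocytes, even without a tissue mismatch, and activated T and NK cells release interferon gamma. Interferons act through promoter elements, the interferon-stimulated response element (ISRE) and the gamma-activated site (GAS), to induce GTPases, chemokines and antigen presentation genes in the cells of the tissue.

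Promoter sequences of genes from both gene groups are shown because the results turn on sets of genes that were high together in the same arrays. They are the 130 bases before the annotated start, on the strand of the gene, from RefSeq for the build GRCm38.p6, in lower case. For Gbp2 and Igtp, interferon-inducible GTPases, and Irgm1, an immunity-related GTPase, the capitals mark matches on either strand to GAAA, any 2 bases and GAAA, used here for the ISRE. The Irgm1 stretch holds 2 matches that overlap. These stretches lie at chr3:142620533-142620662 (plus strand), chr11:58199426-58199555 (plus strand) and chr11:48871421-48871550 (minus strand).
Gbp2: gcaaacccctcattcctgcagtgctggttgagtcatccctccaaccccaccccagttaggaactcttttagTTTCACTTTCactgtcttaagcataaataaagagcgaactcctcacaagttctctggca
Igtp: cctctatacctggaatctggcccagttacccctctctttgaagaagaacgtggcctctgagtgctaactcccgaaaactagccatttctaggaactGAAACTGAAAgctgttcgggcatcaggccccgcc
Irgm1: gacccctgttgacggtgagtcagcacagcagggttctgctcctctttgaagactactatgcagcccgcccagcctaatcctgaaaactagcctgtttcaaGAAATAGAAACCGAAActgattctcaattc

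For Krt25, Krt27 and Krt71, keratins of the inner root sheath, and Krtap8-1, a keratin-associated protein of the hair cortex, the capitals mark matches to TATAAA. These stretches lie at chr11:99322952-99323081 (minus strand), chr11:99351119-99351248 (minus strand), chr15:101743098-101743227 (minus strand) and chr16:89487953-89488082 (minus strand).
Krt25: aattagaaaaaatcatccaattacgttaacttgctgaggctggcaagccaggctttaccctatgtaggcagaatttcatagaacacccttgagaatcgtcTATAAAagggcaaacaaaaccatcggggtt
Krt27: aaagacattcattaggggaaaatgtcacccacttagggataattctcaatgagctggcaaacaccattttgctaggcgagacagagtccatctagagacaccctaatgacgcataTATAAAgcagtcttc
Krt71: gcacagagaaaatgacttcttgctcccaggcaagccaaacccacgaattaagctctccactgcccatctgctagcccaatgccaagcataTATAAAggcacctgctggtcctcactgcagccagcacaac
Krtap8-1: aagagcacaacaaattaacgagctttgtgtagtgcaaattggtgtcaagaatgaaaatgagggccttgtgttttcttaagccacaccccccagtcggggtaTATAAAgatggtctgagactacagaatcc

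Over windows of 250 bases before the start, the ISRE letters stood on either strand in 8 of the 15 windows of the interferon gamma response list (13 of its 19 measured genes matched the table) and in 8 of the 19 windows of the type I interferon list, against 2.98% of all 32851 windows. TTCNNNGAA, used for the GAS element, stood in 4 of the 15 windows of the interferon gamma list (26.7%), in 8 of the 35 of keratin-associated protein genes (22.9%) and in 7.02% of all windows. TATAAA, also searched on both strands, stood in 27 of the 35 windows of keratin-associated protein genes, 8 of the 13 of inner root sheath genes and 5 of the 7 of hair shaft keratin genes, against 12.4% of all windows. The melanocyte list, whose genes also had higher means at day 28, had TATAAA in 2 of 15 windows. A match is a stretch of letters and was not tested as a site.

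The deposited values were intensities and were used as log2(intensity + 16). On this scale an unexpressed gene lies at about 4 to 5, and a change of 1 is a doubling for genes well above that. Array medians of the intensity were 14.8 to 17.2 among the syngeneic arrays. The log2 ratio of the 3' to the 5' control probe sets of Gapdh, which rises with RNA degradation, was 3.19, 0.99, 0.97 and 6.36 on arrays 1 to 4 of day 14 and 2.17, 2.14, 4.10 and 0.86 on those of day 28. Array 1 of day 14 stood apart in some long or nuclear transcripts: Malat1, a nuclear long non-coding RNA, read 6.62 there and 10.90 to 13.86 on the other syngeneic arrays, and Synm, a large intermediate filament protein, read 5.23 against 8.93 to 12.15. Rag2, the targeted gene, read 4.59 to 4.98, near the background. Whether its probe set lies in the deleted part is not known, so this does not test the genotype. Defining markers of skin were high on all 8 arrays, with Krt10 of the upper epidermis at 15.46 to 15.91 and Col3a1, a dermal collagen, at 13.29 to 15.13. Myh4, a fast muscle myosin, was high too, at 15.33 to 15.80.

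Several genes known from blood-derived cells had lower RNA levels in skin at day 28 than at day 14. In limma's fit of all 24 arrays, 14 of 18193 genes passed an adjusted p of 0.05, which is 0.077% of the genes tested. Of these, 13 fell (0.0715%) and 1 rose. For all 14, the 4 arrays of day 28 lay wholly on the same side of those of day 14. The genes were called on these same values, so this is a description and no separate support. Genes whose days did not overlap in this way made up 2.1% of all genes in the lower direction (382) and 1.39% in the higher direction (253). Without a threshold on adjusted p, 493 genes differed by at least 2-fold, 231 higher and 262 lower at day 28, and the median change over all genes was -0.006.

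Among the genes that fell, Ly86, the secreted partner of the receptor CD180 on B and myeloid cells, read 11.71, 11.11, 9.69 and 10.55 at day 14 and 7.99, 9.06, 8.0 and 9.21 at day 28. It fell by 2.20 ± 0.36 (SE), or 4.61-fold (adjusted p = 0.0248). Nckap1l, an actin regulator of blood cells, read 9.53, 8.57, 7.81 and 8.19 and then 6.89, 7.38, 6.04 and 6.78, a change of -1.75 ± 0.30 (SE) with an adjusted p of 0.0291. In both genes array 1 of day 14 was the highest of the 8.

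Laptm5, a lysosomal membrane protein of blood cells, was brightest on arrays 4 and 1 of day 14, at 14.20 and 14.09, and read 11.13 to 12.46 at day 28 (change -1.79 ± 0.32 SE). Arrays 4 and 1 had the highest Gapdh ratios of day 14. Fyb, an adaptor of the T cell and myeloid cytoskeleton, went from 8.73 to 10.44 at day 14 to 7.78 to 8.13 at day 28 (change -1.62 ± 0.28 SE). C1qb, a chain of the first complement component made mainly by macrophages, read 14.18, 13.20, 13.10 and 13.60 and then 12.31, 12.57, 11.74 and 12.13. It fell by 1.33 ± 0.23 (SE; adjusted p = 0.0335) and was the only called gene that belonged to any of the 44 gene lists used here.

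C6, a component of the complement membrane attack complex, fell by 2.04 ± 0.33 (SE), from 7.38 to 9.42 at day 14 to 5.57 to 6.75 at day 28. Uba7, the activating enzyme for the ubiquitin-like interferon product ISG15, read 9.81, 9.09, 7.81 and 8.34 and then 6.75, 7.45, 5.85 and 7.08, a change of -1.98 ± 0.37 (SE; adjusted p = 0.0474). Crlf2, a chain of the receptor for the cytokine TSLP, fell by 0.76 ± 0.12 (SE). Rassf4, a Ras association domain protein, fell by 1.41 ± 0.25 (SE). The remaining falls were Msh5, a meiotic mismatch repair homologue (-0.89 ± 0.16 SE), Kcp, a secreted modulator of BMP signals (-0.86 ± 0.16 SE), and Mfsd11, a transporter family member (-0.51 ± 0.08 SE).

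Siglecf, a sialic acid receptor best known from eosinophils, had the smallest adjusted p of all genes, 0.00613, with a small change of -0.40 ± 0.05 (SE). It read 5.31, 4.95, 5.06 and 5.18 at day 14 and 4.71, 4.74, 4.77 and 4.71 at day 28. All 8 values are near the background, so the fold is understated by the offset. Rps10, a protein of the small ribosomal subunit, was the only gene that rose, by 0.33 ± 0.05 (SE; adjusted p = 0.0248), from 14.63 to 14.80 at day 14 to 15 to 15.12 at day 28. Just outside the threshold lay Rnf20, a histone H2B ubiquitin ligase (0.64 ± 0.12 SE, adjusted p = 0.05 after rounding), and Ctss, the cathepsin that trims the class II invariant chain (-1.69 ± 0.33 SE, adjusted p = 0.0666).

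**Figure D1:**
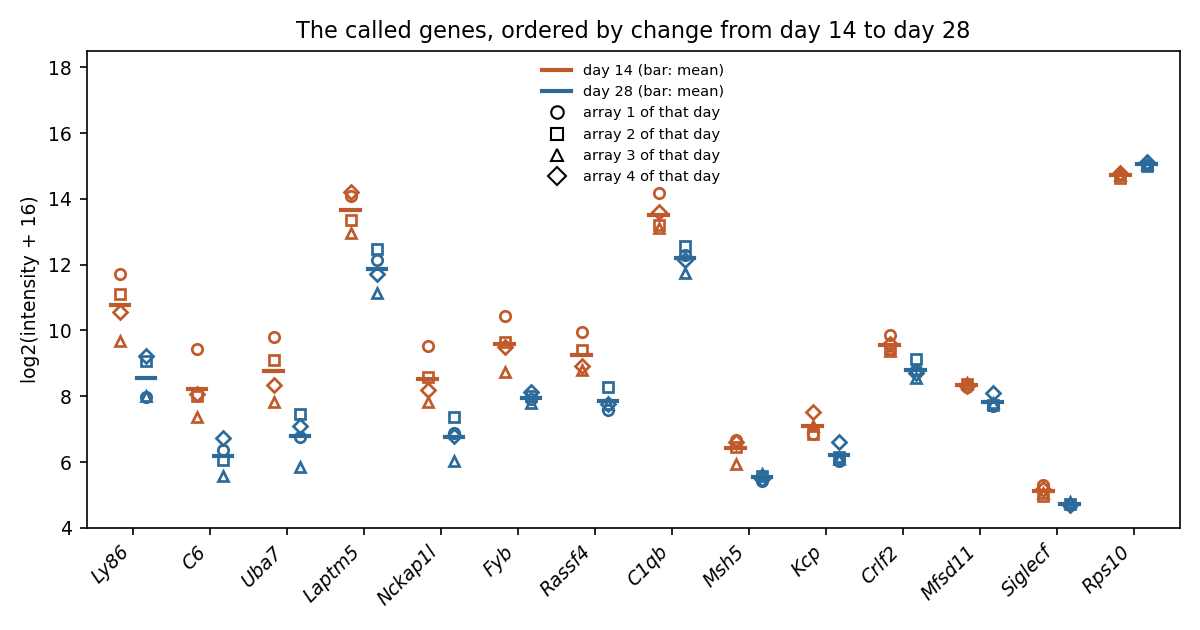
Values of the 14 called genes as log2(intensity + 16) on each of the 4 arrays of day 14 (orange) and day 28 (blue), with a symbol per array and a bar at the mean of a day. In every gene the days are apart, but the genes were called on these same values. The 13 falls run from -2.20 in Ly86 to -0.40 in Siglecf.

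The number of called genes rested on single arrays. It was 2 without array 1 of day 14, 39 without array 2, 140 without array 3 and 17 without array 4. Without arrays 1 to 4 of day 28 it was 1, 24, 2 and 9. In the fit of the 8 syngeneic arrays alone no gene was called and the adjusted p of the 14 genes was 0.62 to 0.664, while 1046 genes had an unadjusted limma p below 0.05. Without the 3 arrays of a Gapdh log2 ratio above 3 (arrays 1 and 4 of day 14 and array 3 of day 28) 3 genes were called, and the part of RNA quality in the counts was not tested otherwise than by the alternatives. In that fit the change was -1.053 for Laptm5, -0.812 for C1qb and -1.175 for Nckap1l. Of the 14 genes, all but Rps10 (0.365) and Mfsd11 (-0.541) had a smaller change there than in the main fit. With the replicate block, in which equal replicate numbers are treated as paired, 4 genes were called. Each of the 14 kept its direction in every alternative that could be computed for it. Siglecf was called in 18 of 20 alternatives and Msh5 in 5 of 20.

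**Figure D2:**
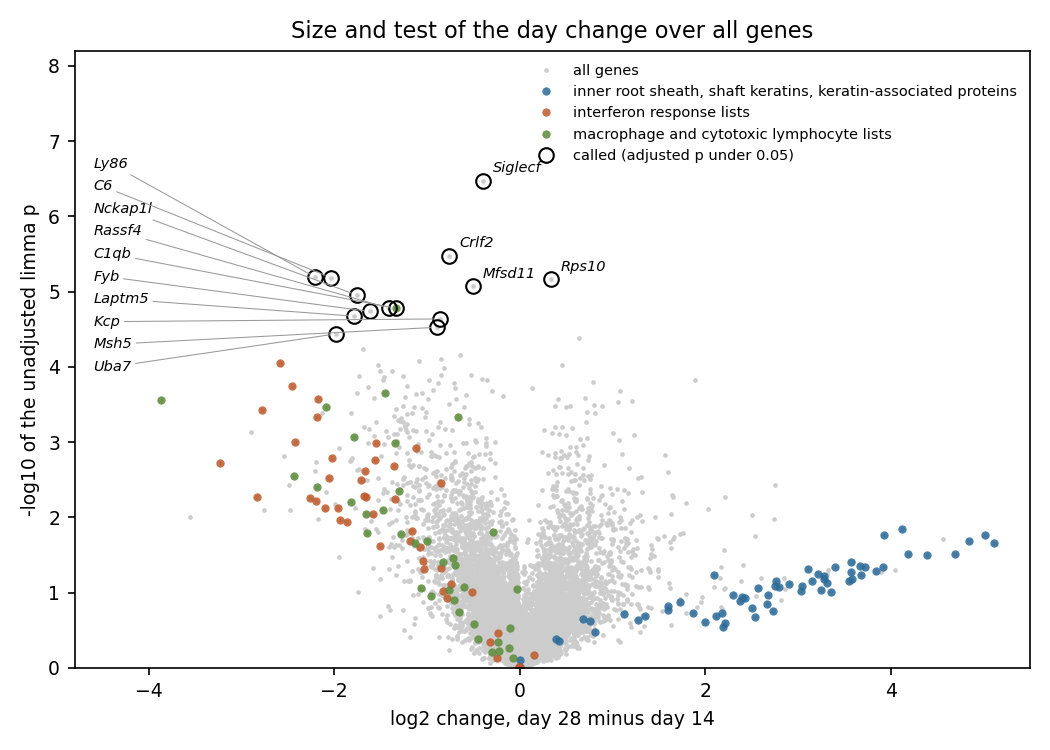
Log2 change from day 14 to day 28 (x axis) against -log10 of the unadjusted limma p (y axis) for 18193 genes, with 3 sets of gene lists in colour and the called genes circled. Hair genes lie far to the right with changes up to 5.11 at low -log10 p, interferon and leukocyte genes lie to the left, and the called genes stand above both.

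Interferon response genes had higher means at day 14, chiefly on arrays 1 and 2 of that day. The mean over the 19 measured genes of the interferon gamma list was 10.98, 9.87, 7.48 and 7.72 at day 14 and 6.96, 7.44, 7.01 and 7.31 at day 28. All 4 arrays of day 14 lay above all those of day 28, but arrays 3 and 4 by a small step and arrays 1 and 2 by more than 2 units. Array 2 had a Gapdh ratio of 0.99 and array 1 one of 3.19. In bulk skin, fewer cells of a type and less RNA per cell cannot be told apart.

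No gene of the interferon gamma list passed the adjusted threshold. All 19 had a lower mean at day 28, with a median change of -2.06. Of these, 15 had an unadjusted p under 0.05 (5.86% of all genes had this in the lower direction). In 7 the days did not overlap (2.1% of all genes in that direction), and both shares serve for the immune lists below. Without array 1 of day 14 the median was -1.25, and without the arrays of high Gapdh ratio it was -1.68 with 13 genes at an unadjusted p under 0.05. Igtp, an immunity-related GTPase that acts on vacuoles of intracellular pathogens, read 13.97, 13.13, 9.36 and 10.69 at day 14 and 8.74, 9.14, 9.08 and 9.05 at day 28, a change of -2.78 ± 0.64 (SE; adjusted p = 0.0918). The spread at day 14 (SD 2.13) was far above that at day 28 (SD 0.18). The SE came from a common variance per gene over all groups, grafts included, so it does not describe the spread of these arrays alone. Gbp2, whose promoter is printed above, read 14.58, 12.73, 10.41 and 10.56 and then 9.76, 10.08, 10.35 and 9.85, so its lowest day 14 array lay only just above its highest day 28 array.

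Irgm1 read 12.22, 10.80, 8.24 and 7.33 at day 14 and 6.84 to 8.0 at day 28, and its days overlapped. Gbp6 changed by -2.46 ± 0.53 (SE), Ifi47 by -2.59 ± 0.52 (SE) and Iigp1, another GTPase of this family, by -2.42 ± 0.62 (SE), each with days apart. Ubd, a ubiquitin-like modifier induced by interferon gamma, was at 11.14 and 9.09 on arrays 1 and 2 of day 14 and between 4.62 and 5.13 on the other 6 arrays, which is the background range. Ifng itself, the cytokine, read 6.81 on array 1 of day 14, 4.90 on array 2 and 4.51 to 4.82 on the rest.

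The chemokines that interferon gamma induces to attract activated T cells were high on the same arrays. Cxcl9 read 12.78, 11.25, 7.07 and 7.24 at day 14 and 5.24, 6.23, 6.44 and 7.48 at day 28, and its change of -3.24 ± 0.90 (SE) did not pass (adjusted p = 0.169). Cxcl10 was at 11.09 and 9.42 on arrays 1 and 2 and at 5.90 to 7.16 on the other 6. Cxcl11 read 8.91, 7.34, 4.78 and 5.20 against 4.67 to 4.72, so it was above the day 28 arrays on all 4 arrays of day 14 although 2 of these were near the background. Over 29 chemokines the median change was -0.70, with 26 lower in mean at day 28, 10 at an unadjusted p under 0.05, 3 with days apart and none called, and without array 1 of day 14 the median was -0.31. Ccl5, made by T and NK cells, changed by -2.21 ± 0.63 (SE), and Ccl8, made by skin macrophages, by -1.31 ± 0.42 (SE).

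Of 25 type I interferon response genes, 24 had a lower mean at day 28 with a median change of -1.17, 19 had an unadjusted p under 0.05, 5 had days apart and none was called. Without the arrays of high Gapdh ratio the median was -0.72 and 5 genes had an unadjusted p under 0.05. Their mean was 9.13, 8.55, 7.58 and 8.18 at day 14 and 6.91, 7.74, 6.74 and 7.28 at day 28, so array 3 of day 14 lay below array 2 of day 28. Oas1a, a sensor enzyme for double-stranded RNA, read 11.28, 9.85, 8.93 and 10.74 and then 8.0, 8.83, 7.19 and 8.05. Here array 4 of day 14 was among the highest, unlike in the interferon gamma list. Rtp4, another interferon-induced gene, changed by -1.55 ± 0.40 (SE; adjusted p = 0.131).

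Antigen presentation genes had smaller differences in mean. The 14 genes of class I presentation and the immunoproteasome had a median change of -0.91, which was -0.52 without array 1 of day 14. Of these, 11 had an unadjusted p under 0.05, 3 had days apart and none was called. The 11 MHC class II genes had a median of -0.70 (6, 3 and none by the same counts). It was -0.48 without array 1 of day 14, -0.51 without array 2 and -1.05 without array 4. Tap1, the peptide transporter, changed by -1.03 ± 0.29 (SE) and Psmb9, an immunoproteasome subunit, by -1.22 ± 0.36 (SE). H2-Aa, the class II alpha chain, read 13.79 to 14.48 at day 14 and 12.98 to 13.64 at day 28, with days apart, a change of -0.85 ± 0.18 (SE; adjusted p = 0.0782). H2-Ab1, its beta chain, changed by -0.87 ± 0.26 (SE).

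Cytotoxic lymphocyte genes were above the background at day 14, chiefly on arrays 1 and 2. The mean of the list was 6.89, 6.23, 5.04 and 5.19 at day 14 and 4.73 to 4.84 at day 28. Gzma, a granule protease of T and NK cells, read 11.27, 9.83, 6.31 and 6.68 at day 14 and 4.52, 4.68, 4.67 and 4.74 at day 28. It was thus above the background on all 4 arrays of day 14 and on none of day 28, with a change of -3.87 ± 0.87 (SE), or 14.6-fold, that did not pass (adjusted p = 0.0839). Gzmb read 9.31, 8.01, 5.13 and 5.41 against 4.46 to 4.99, and Nkg7, a granule membrane protein, 8.11, 6.83, 4.82 and 5.62 against 4.34 to 4.63. Of 13 genes in the list all had a lower mean at day 28, with a median of -0.69. An unadjusted p under 0.05 was found in 8 (5.86% of all genes in this direction) and days apart in 4 (2.1%). None was called, and without array 1 of day 14 the median was -0.29. In the fit of the 8 syngeneic arrays alone 2 genes of the list had an unadjusted p under 0.05.

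T cell genes lay near the background in many cases. The median change over 18 genes was -0.10, none was called, 3 had an unadjusted p under 0.05 and the same number had days apart. In the lower direction 5.86% of all genes had such a p and 2.1% had days apart. Ms4a4b, a membrane protein of T and NK cells, read 8.62, 8.82, 6.11 and 5.92 at day 14 and 4.98 to 5.53 at day 28, and Cd2, an adhesion receptor of the same cells, read 7.70, 6.54, 5.39 and 5.90 and then 4.41 to 5.22. Tbx21, the transcription factor of interferon gamma producing T and NK cells, read 6.98, 5.37, 4.49 and 5.47 against 4.35 to 4.48. Of the receptor chains that define T cells, Cd3e was measurable at both days (5.30 to 7.34 at day 14, 5.11 to 7.20 at day 28), while Cd3g read 4.48 to 4.76 on all 8 arrays. Ncr1, which defines NK cells, read 4.73 and 5.18 on arrays 1 and 2 of day 14 and 4.36 to 4.38 on the others.

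All 23 macrophage and monocyte genes had a lower mean at day 28, with a median change of -0.96. C1qb was the 1 called member, 13 had an unadjusted p under 0.05 (8 without the arrays of high Gapdh ratio) and 3 had days apart. Csf1r, the growth factor receptor of these cells, read 12.62, 12.45, 12.81 and 12.84 at day 14 and 11.61, 12.24, 11.92 and 12.28 at day 28. Its day 14 arrays were even, with no excess on arrays 1 and 2, and the change was -0.67 ± 0.16 (SE). Tyrobp, a signalling adaptor of myeloid and NK cells, changed by -1.45 ± 0.32 (SE). Fcgr4, an activating Fc receptor, read 9.82, 6.43, 4.36 and 6.67 and then 4.36 to 4.42, a background level that array 3 of day 14 shared.

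Other leukocyte lists differed in size of change. B and plasma cell genes had a median of -0.01 over 10 genes with none at an unadjusted p under 0.05, and Cd79a, a defining B cell receptor chain, read 4.39 to 4.41 on all 8 arrays. Neutrophil genes had a median of -0.004 and cytokines and acute-phase proteins one of -0.09. Dendritic and Langerhans cell genes had a median of -0.70, with 12 of 13 lower in mean, 6 of them at an unadjusted p under 0.05, and none called. The mast cell median of -0.25 was -0.03 without array 1 and -0.07 without array 2 of day 14, and the endothelial activation median of -0.33 was -0.06 without array 2 of day 14. Tnf read 5.04 to 6.28 at day 14 and 4.45 to 4.90 at day 28, and Icam1, an adhesion molecule, 9.06 to 10.94 and then 8.72 to 9.0.

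**Figure D3:**
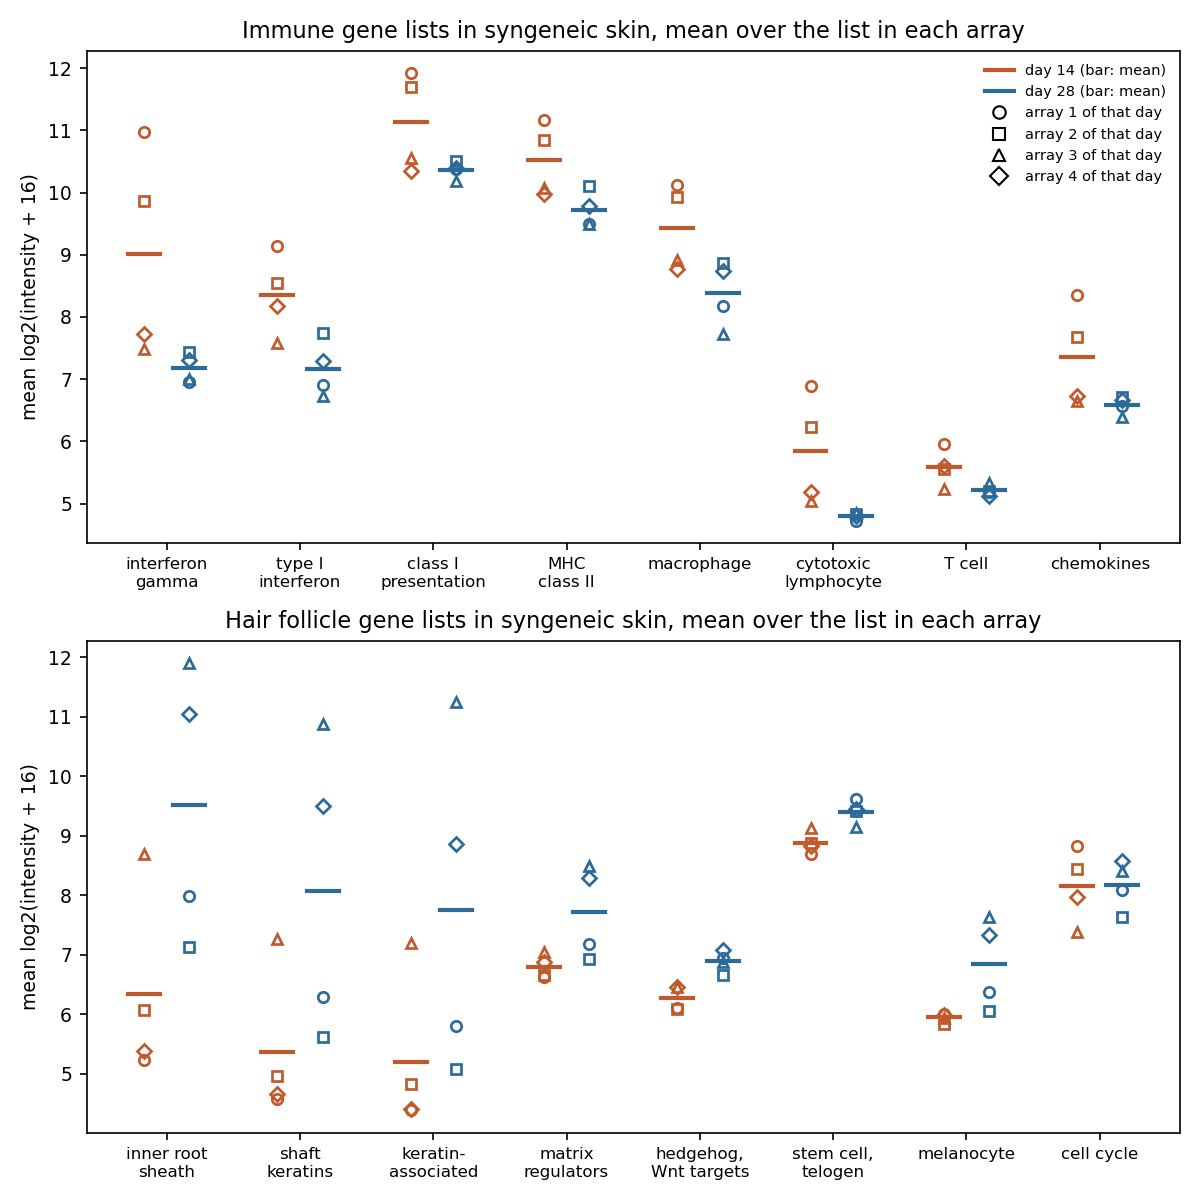
Mean log2(intensity + 16) over each gene list in each syngeneic array, with immune lists above and hair follicle lists below, day 14 in orange and day 28 in blue, a symbol per array and a bar at the mean of a day. Arrays 1 and 2 of day 14 are highest in the immune lists with the exception of the T cell list, in which array 4 lies beside array 2, and arrays 3 and 4 of day 28 are highest in the inner root sheath, shaft keratin and keratin-associated lists.

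Genes of the hair shaft and its sheath made up most of the largest positive changes in mean, and none passed the test. Of the 50 genes with the largest positive change, 36 belonged to the inner root sheath, hair shaft keratin and keratin-associated protein lists. These lists hold 13, 12 and 37 of the 18193 measured genes and were chosen with earlier results of these data known. The mean of the 13 inner root sheath genes was 5.23, 6.07, 8.69 and 5.39 at day 14 and 7.99, 7.13, 11.90 and 11.05 at day 28. Array 3 of day 14 therefore lay above arrays 1 and 2 of day 28. The median change was 3.57 for this list, with 7 genes at an unadjusted p under 0.05, which 3.22% of all genes had in the higher direction. It was 3.10 for 12 shaft keratins (3 genes) and 2.56 for 37 keratin-associated proteins (4 genes). In the fit of the 8 syngeneic arrays alone the gene counts were 5, 0 and 2. In none of the 3 lists did any gene have days apart, which 1.39% of all genes had in the higher direction. Without array 3 of day 28 the medians were 2.48, 1.95 and 1.33. When all 3 arrays of high Gapdh ratio were left out, that array among them, they were 1.56, 1.03 and 0.58, and with array weights 1.11, 0.60 and 0.28.

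Krt25, a type I keratin of the inner root sheath, read 4.73, 7.84, 12.00 and 5.33 at day 14 and 11.40, 10.06, 14.76 and 14.13 at day 28. On arrays 1 and 4 of day 14 it was near the background and on all 4 arrays of day 28 it was well above it, but array 3 of day 14 exceeded 2 of those. The change was 5.11 ± 2.05 (SE), 34.6-fold, with an adjusted p of 0.412. Krt71, its type II partner, read 4.47, 5.85, 10.55 and 4.46 and then 9.87, 8.97, 13.17 and 13.37, a change of 5.02 ± 1.92 (SE). Krt27 changed by 4.69 ± 2.01 (SE) and Tchh, trichohyalin, the granule protein that hardens the sheath, by 4.13 ± 1.53 (SE).

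Some shaft genes were at the background on arrays where Krt25 was not. Krt34, a keratin of the cortex, read 4.44, 4.83, 9.17 and 4.44 at day 14 and 7.57, 7.29, 13.25 and 11.50 at day 28. Krt35, a keratin of the lower shaft, read 4.44 to 4.46 on 3 arrays of day 14 and 7.27 on array 3, and then 5.92, 4.99, 11.05 and 10.86. Krtap8-1 read 4.31, 7.24, 11.25 and 4.31 and then 10.10, 8.97, 14.26 and 13.15, much like Krt25. Krtap19-3, from another keratin-associated family, read 4.45, 5.46, 8.67 and 4.44 and then 5.38, 4.43, 13.69 and 9.68, so array 2 of day 28, with Krt25 at 10.06, had it at background. The change of Krtap19-3, 2.54 ± 1.95 (SE), turned to -0.93 with array weights and to -0.57 without the arrays of high Gapdh ratio.

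Genes of the growing bulb separated the arrays in another way. Msx2, a transcription factor of matrix cells, read 4.43 to 4.44 on all 4 arrays of day 14 and 4.74, 4.43, 6.89 and 6.79 at day 28. Lef1, the Wnt effector of the shaft precursors, read 4.46 to 4.67 and then 4.83, 4.54, 6.46 and 6.37. Shh, the signal that matrix cells send, read 4.76 to 5.71 and then 6.64, 5.46, 8.67 and 9.52. Array 3 of day 14, with Krt25 at 12.00, was at the level of its day in all 3 genes. Array 2 of day 28 lay within the day 14 range in all 3. The changes of Msx2, Lef1 and Shh were 1.28 ± 0.70, 1.0 ± 0.62 and 2.21 ± 0.92 (SE), and none passed. With the mean of the hair lists as a covariate, the changes of Msx2 and Lef1 were -0.087 and -0.19, and that of Krt35 was -0.43. The covariate was built from the hair shaft keratin and inner root sheath lists. Loss of change in a shaft keratin such as Krt35 is therefore built in and tests nothing. Over 22 matrix and cortex regulators the median was 0.67, with 5 at an unadjusted p under 0.05. Without the arrays of high Gapdh ratio 1 had such a p. In the higher direction 3.22% of all genes had such a p and 1.39% had days apart. The 1 regulator with days apart was Wnt5a, a ligand of the follicle mesenchyme and epithelium, at 1.60 ± 0.46 (SE). It read 5.65 on array 1 of day 14 and 7.35 to 7.60 on the other arrays of that day.

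Some pigment genes were at the background at day 14 and above it on some arrays of day 28. Tyrp1, an enzyme of melanin synthesis, read 4.83, 4.59, 4.70 and 4.67 at day 14 and 6.05, 5.16, 9.42 and 9.14 at day 28, a change of 2.74 ± 0.97 (SE; adjusted p = 0.318) with days apart. Mlana, a melanosome protein, read 4.32 to 4.33 and then 5.38, 4.41, 9.25 and 7.90. Dct, which acts beside Tyrp1, was measurable at both days, with 6.14, 6.68, 7.61 and 9.23 and then 9.55, 8.19, 11.26 and 10.68. All 15 melanocyte genes had a higher mean at day 28 and their median change was 0.41, with 4 at an unadjusted p under 0.05. Without the arrays of high Gapdh ratio 1 had such a p. In the higher direction 3.22% of all genes had such a p.

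**Figure D4:**
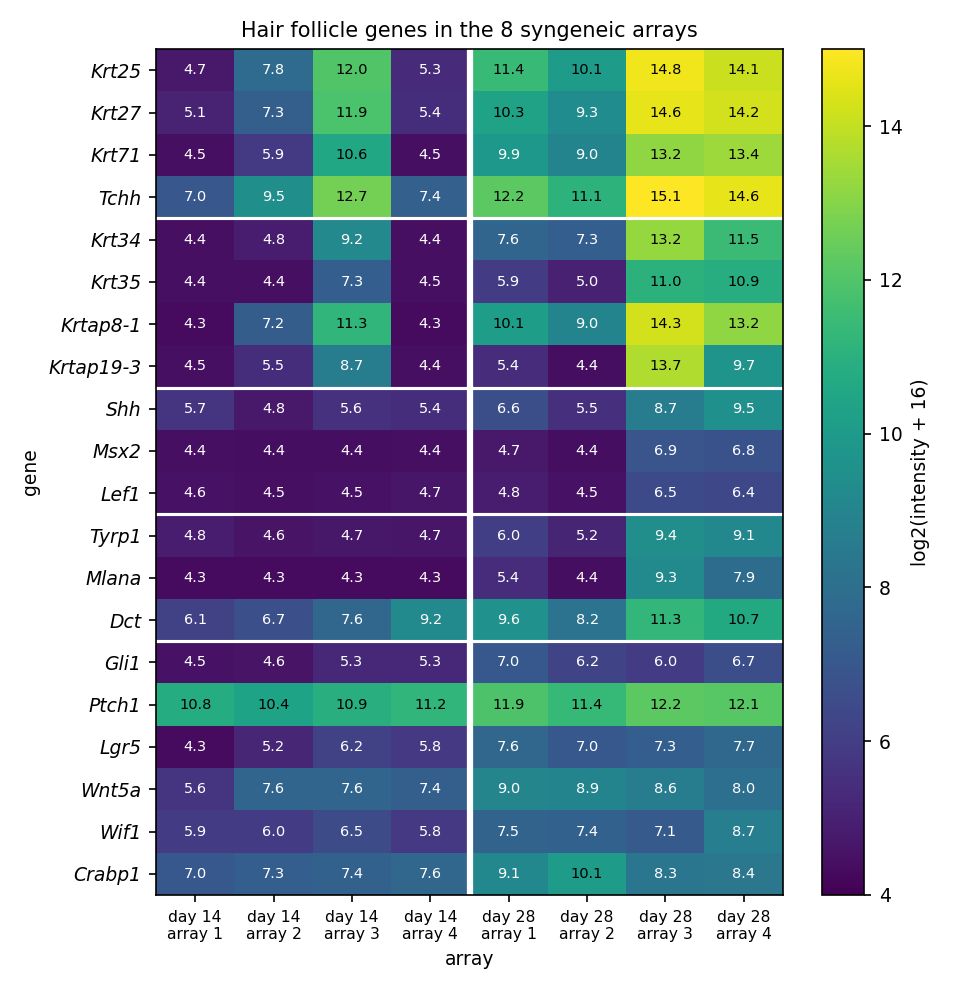
Level of 20 hair follicle genes as log2(intensity + 16) (colour and printed value) in the 8 syngeneic arrays, in blocks of inner root sheath, shaft, matrix and pigment genes and of signalling, stem cell and papilla genes. Array 3 of day 14 has high sheath and shaft genes with Msx2, Lef1, Tyrp1 and Mlana at background, and arrays 3 and 4 of day 28 have all of these above every array of day 14.

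A smaller set of follicle genes was higher on all 4 arrays of day 28, whether or not shaft genes were high. Lgr5, a receptor that marks cycling follicle stem cells, read 4.31, 5.16, 6.16 and 5.84 at day 14 and 7.62, 7.02, 7.27 and 7.68 at day 28, a change of 2.03 ± 0.68 (SE; adjusted p = 0.282). Gli1, the transcriptional target and effector of hedgehog signalling, read 4.53, 4.57, 5.27 and 5.28 and then 7.05, 6.24, 5.96 and 6.66. Ptch1, the hedgehog receptor and itself a target, changed by 1.07 ± 0.27 (SE; adjusted p = 0.128). Of 13 hedgehog and Wnt target genes 11 had a higher mean, 4 had an unadjusted p under 0.05, 3 had days apart and the median was 0.67. In the higher direction 3.22% of all genes had such a p and 1.39% had days apart. Mycn, a growth regulator outside the lists, read 4.65 to 5.59 and then 7.36, 5.89, 7.65 and 8.56.

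Dermal papilla genes had a median of 0.08 over 20 genes. In the higher direction 5 had an unadjusted p under 0.05 (3.22% of all genes) and 3 had days apart (1.39%). Among these, Wif1, a secreted Wnt inhibitor, read 5.91, 5.96, 6.53 and 5.81 at day 14 and 7.51, 7.42, 7.10 and 8.71 at day 28. Crabp1, a retinoic acid binding protein, read 7.04 to 7.62 and then 9.13, 10.10, 8.31 and 8.36. Within day 28 it was highest on the arrays with lower shaft genes. The stem cell and telogen list had 18 of 19 genes higher in mean and a median of 0.45, which was 0.26 without array 1 of day 28. Its members Sox9 (0.85 ± 0.32 SE) and Lhx2 (1.21 ± 0.61 SE), transcription factors of the bulge and hair germ, had days apart.

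In the outer follicle, Krt75 of the companion layer changed by 1.16 ± 0.65 (SE) and Krt17 of the outer root sheath by 0.66 ± 0.34 (SE), both with days apart, in a list whose median was 0.08. Cell cycle genes did not change between days as the shaft genes did. Their mean was 8.83, 8.44, 7.38 and 7.96 at day 14 and 8.09, 7.64, 8.41 and 8.57 at day 28, the median change over 29 genes was -0.01 and none had an unadjusted p under 0.05. Array 3 of day 14, which had high shaft genes, was the lowest of the 8 in this list. Within day 28, however, the arrays with the highest shaft genes, arrays 3 and 4, were also the highest in this list.

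Most lists of the rest of the skin had medians near that of all genes, and the sebaceous gland and smooth muscle lists had larger ones. Median changes were 0.14 for basal and spinous epidermis, 0.23 for epidermal differentiation, 0.09 for adipocytes, 0.10 for skeletal muscle, -0.06 for fibroblasts and 0.06 for collagens and matrix, and no gene of these lists was called. The epidermal differentiation median was -0.24 without the arrays of high Gapdh ratio. Sparc, a matrix glycoprotein, read 10.23 on array 1 of day 14 and 12.61 to 13.59 on the other 7 arrays. Smooth muscle and pericyte genes had a median of 0.31. Sebaceous gland genes had a median of 0.41, and among them Cidea, a lipid droplet protein, read 7.70 to 8.07 and then 8.38 to 9.03 with days apart. Cyp2g1, an enzyme of olfactory and skin epithelium outside the lists, read 4.91, 9.46, 10.21 and 8.90 and then 10.40 to 11.31. Epidermal stress genes had a median of -0.30, and in this list Stfa3, a stefin protease inhibitor, read 10.75 and 10.43 on arrays 1 and 2 of day 14 and 5.59 to 8.86 on the other 6. That median was 0.03 without array 1 of day 14 and 0.01 without array 2 of day 28, so the list has no settled direction.

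Lists that read the state of the sample were also near 0. The circadian clock list had a median of -0.05, immediate early genes one of 0.06, hypoxia and glycolysis one of -0.19, the respiratory chain one of 0.04 and heat shock genes one of -0.28, which was -0.10 without array 1 of day 14. Among genes of higher mean at day 28 that were not called, Ism1, a secreted protein, read 5.83 to 6.26 at day 14 and 7.03 to 7.35 at day 28, and Ctnnd1, the catenin p120 of cell junctions, 8.94 to 10.12 and then 10.58 to 10.77. Their adjusted p were 0.0839 and 0.0829.

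Spread between arrays of a day was part of the pattern. Over all genes the median SD was 0.265 at day 14 and 0.183 at day 28, and 873 genes had an SD over 1 at day 14 against 261 at day 28. Above an SD of 2 the order turned, with 65 genes at day 14 and 81 at day 28. The SD of the interferon gamma list mean was 1.69 at day 14 and 0.23 at day 28, whereas that of the keratin-associated protein mean was 1.35 and 2.85. The interferon gamma list was thus less even at day 14 and the keratin-associated list at day 28. Among single genes, Krt25 had an SD of 3.30 at day 14 and 2.23 at day 28, and Ubd one of 3.03 and 0.14.

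The day change of syngeneic skin was set against that of the mismatched grafts, with which it shares no array. It differed from that of isotype-treated grafts in 8 genes by limma's test of the difference (0.044% of genes), 7 of them with a more positive change in the graft, and from that of anti-IFNAR1-treated grafts in 0 genes (0%), with 1005 at an unadjusted p under 0.05. With only the compared arrays fitted, and also when the syngeneic arrays of high Gapdh ratio were left out, 1 gene differed from isotype skin. With the replicate block the counts were 5 and 0. Leaving out single arrays, the isotype count was 3 without day 14 array 4 or without day 28 array 1 or 2 of syngeneic skin, 4 without day 14 array 1, 15 without day 14 array 2, 39 without isotype day 14 array 1, and 16 and 53 without isotype day 28 arrays 2 and 3. The anti-IFNAR1 count was 3 without syngeneic day 14 array 2 or anti-IFNAR1 day 28 array 2 and 1 without syngeneic day 28 array 4.

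Cornified envelope genes had the smallest p of these. Sprr2k, a small proline-rich protein of the cornified envelope, had a mean of 4.74 at day 14 and 4.67 at day 28 in syngeneic skin and of 4.85 and 6.59 in isotype skin, a difference between the day changes of 1.81 ± 0.12 (SE; adjusted p = 6.22e-08). Lce1g, a late cornified envelope protein, changed by -0.07 in syngeneic and 1.09 in isotype skin (adjusted p = 0.00142). Nccrp1, an epithelial ubiquitin ligase component, Cpa4, a carboxypeptidase, Mall, a membrane raft protein, Mmp11, a stromal metalloproteinase, and Ighg3, an immunoglobulin heavy chain, changed by -0.34 to -0.12 in syngeneic skin and by 1.43 to 2.75 in isotype skin. Ywhaq, a 14-3-3 protein, changed by 0.24 and -0.30. In syngeneic skin itself none of the 8 was called between days.

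Median changes of several lists had the same sign in the grafts. The interferon gamma list had medians of -2.06 in syngeneic, -0.79 in isotype and -1.43 in anti-IFNAR1 skin, and the macrophage list -0.96, -0.97 and -1.20. The inner root sheath list had 3.57, 0.97 and 2.22, and shaft keratins 3.10, 0.45 and 2.23. The size of the graft values of both hair lists came mainly from 1 array each. In isotype skin, however, all 4 inner root sheath means of day 28 lay above all those of day 14. The mean of the inner root sheath list was 5.11 to 5.41 at day 14 and 8.74, 5.67, 5.55 and 5.79 at day 28 in isotype skin, and 5.26 to 5.32 and then 5.24, 13.20, 5.42 and 6.16 in anti-IFNAR1 skin. That of the shaft keratins reached 6.38 on 1 isotype and 12.39 on 1 anti-IFNAR1 array of day 28. No member of these 4 lists had a day change that differed from the syngeneic one by adjusted p in either graft. In other lists the sign or size went apart: the sebaceous gland list had 0.41 in syngeneic and -1.52 in isotype skin, with 8 of 13 genes at an unadjusted p under 0.05 for the difference, and the epidermal differentiation list 0.23 and 0.99, with 10 of 17. Over all genes 9.76% had such a p, and no member of either list was called for the difference.

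**Figure D5:**
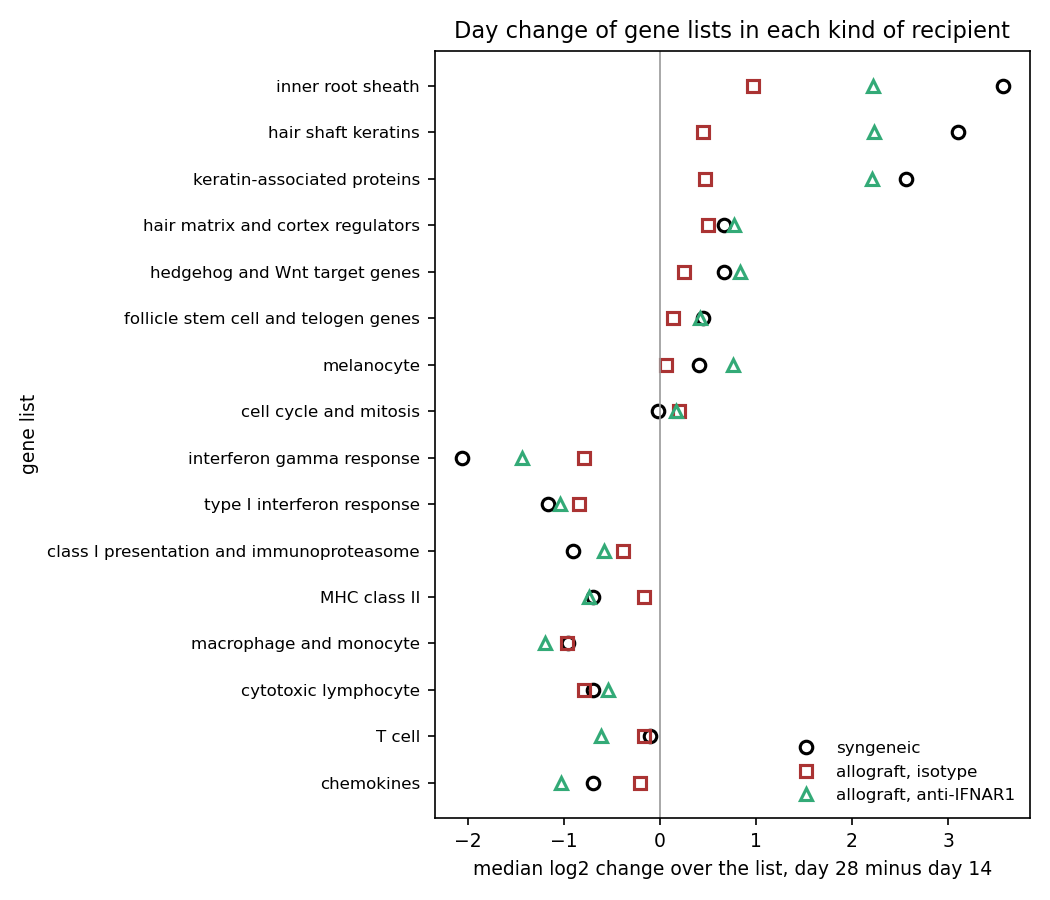
Median log2 change from day 14 to day 28 over each gene list (x axis) in syngeneic skin (black circles), isotype-treated grafts (red squares) and anti-IFNAR1-treated grafts (green triangles). The inner root sheath median runs from 0.97 in isotype to 3.57 in syngeneic skin, and all 3 medians of the interferon gamma list are below 0.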

How the data were processed

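Total RNA of 24 skin samples was measured on Affymetrix arrays, 4 for each of 6 groups. The deposited table holds the authors' linear intensity per probe set. Their summarisation and normalization are not given in the sources used here. The table was taken as normalized, since array medians were alike. From 45101 probe sets, 34945 with 1 gene symbol were kept, and the set of highest mean stood for each of 18193 genes. Values were the log2 of the deposited intensity plus 16.

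limma 3.58.1 (R 4.3.3) was fitted to all 24 arrays with a mean per group (18 residual degrees of freedom), two-sided, with Benjamini-Hochberg adjustment over all genes and a threshold of 0.05 ("called"). Each SE came from this fit, with a common variance per gene over all groups, the grafts included. It can therefore differ from what the spread of the syngeneic arrays alone would give. The fit was tested on simulated data. Differences of day change were contrasts of the same fit. Members and the 44 gene lists (735 measured members) were chosen with earlier results of these data known. Named genes are the called genes, up to 15 of smallest p each way, called or bright list members, fixed follicle and immune genes, differences of day change and the 10 genes of largest SD a day. Others, among them Gli1, Wif1, Crabp1, Mycn, Mlana, Igtp, Ifi47, Oas1a, Nkg7, Cd2, Tbx21, Fcgr4, Cyp2g1, Lce1g and Mall, were chosen after their values were seen. Same-numbered arrays of the 2 days deviated from their day means with correlations of -0.56 to 0.12, so the numbers were not taken to pair arrays. Alternatives were 2 normalizations, 2 offsets, a filter, other probe set summaries, priors, weights, covariates and array sets. The number of arrays limits the precision. Motifs were matched by letters in RefSeq promoter windows.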

Additional observations from a re-analysis of the deposited data

Results flagged for a closer look

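In groups of 4 arrays, 14 of 242 sets of values (list means and named genes) held 1 array whose gap to the nearest other array exceeded Dixon's critical share of the range, and chance gives about 1 in 20. At day 14, array 3 stood high in the mean of the shaft keratins (7.27) and of the keratin-associated proteins (7.20) and in Krt34 (9.17) and Krt35 (7.27). Array 1 of day 14 stood high in Ifng (6.81) and in the means of heat shock and unfolded protein genes (12.19) and of companion layer and outer root sheath genes (8.96), and low in Sparc (10.23) and Wnt5a (5.65). Krt17 was low on array 4 of day 14 (12.11) and on array 2 of day 28 (13.05). At day 28, array 3 stood apart in the means of skeletal muscle (13.68) and respiratory chain genes (12.46), and Nkg7 was lowest on array 1 (4.34), within the background.

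The day change was more positive in isotype than in syngeneic skin, by limma's test of the difference, for Ighg3 (2.87), Mmp11 (2.79), Nccrp1 (2.28), Cpa4 (2.21), Sprr2k (1.81), Mall (1.61) and Lce1g (1.16), and more negative for Ywhaq (-0.54).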

How the results depend on the processing

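The count of 14 genes was 7 with medians centred, 4 with the mean of all probe sets, 27 with offset 1, 493 with array weights (183 higher, 310 lower), 25 with the Gapdh ratio and 4 with the hair mean as covariate, 0 in the 8 arrays alone, 8 at 2-fold or more, 3 without the arrays of high Gapdh ratio (an alternative chosen after seeing the data) and 1 to 140 when single arrays were left out. The 8 genes that differed in day change from isotype skin were 25 after quantile normalization, 26 with medians centred, 23 in the brighter genes, 22 with the mean of probe sets, 150 with array weights, 1 in the compared arrays alone, 1 without the arrays of high Gapdh ratio and 3 to 53 without single arrays. The 0 genes for anti-IFNAR1 skin became 357 with array weights, 1 with the hair mean and 0 to 3 without single arrays. With the replicate block the counts were 4, 5 and 0. The cause of these shifts was not tested. Settings not listed here moved a count by less than 1.5 times.

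Of 1822 values of 85 named genes under alternatives, 6 had the other sign. With the hair mean as covariate, which is built from hair genes, the change was -0.43 for Krt35, -1.50 for Krtap19-3, -0.19 for Lef1 and -0.087 for Msx2. For Krtap19-3 it was -0.93 with array weights and -0.57 without the arrays of high Gapdh ratio. Genes near the background have understated folds.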
